A study of Mus musculus with 4 samples.

Results

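The p53 family and its direct regulators were examined as 8 genes chosen by their symbols: the transcription factor genes Trp53, Trp63 and Trp73, the inhibitor genes Mdm2 and Mdm4, and the ASPP genes Trp53bp2, Ppp1r13b and Ppp1r13l. All 8 were among the 15733 protein-coding genes listed, and 7 passed the filter on low counts, which kept 13793 genes; Trp73 did not. The libraries came from mouse pachytene spermatocytes, the meiotic cells in which homologous chromosomes are synapsed. Single-cell suspensions of testis were kept ex vivo for 12 h with 2.5 µM BMH21, an inhibitor of RNA polymerase I that intercalates into DNA, or with the solvent alone (mock, DMSO). Pachytene cells were afterwards isolated by FACS on staining with the DNA dye Hoechst 33342. There were 2 libraries of each group, called biological replicates in the labels; the sources used here give no strain, age or number of animals. The compound thus met all cells of the suspension before the sort.

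The 4 libraries held 30964370 to 41548269 counts. Replicates were not copies of one library, since their counts varied beyond sampling noise (chi-square divided by its degrees of freedom, 3.78 in BMH21 and 3.23 in mock). All 10 pachytene markers were detected, with a summed level of 9341 and 9501 CPM in BMH21, against 9107 and 9269 CPM in mock (CPM, counts divided by library sizes that were scaled with TMM); 5 of them rose and 5 fell, led in level by the lactate dehydrogenase gene Ldhc (on average 4610 CPM in BMH21 and 4375 CPM in mock) and the chaperone gene Hspa2 (1575 CPM in BMH21 and 1649 CPM in mock). Ldhc, at a log2 fold change of 0.08, was not called under upper quartile scaling (0.03), by DESeq2 (0.07) or without mock replicate 1 (0.05), nor was Hspa2, at -0.07, without mock replicate 1 (-0.07) or mock replicate 2 (-0.06). All 10 pachytene markers were called (edgeR adjusted p under 0.05), against 29.1% of all tested genes. Larger changes, named after their values were seen, were rises of Sycp3 (log2 fold change 0.46), Hormad1 (0.33) and Sycp1 (0.27). Pou5f2 (-0.22), Piwil1 (-0.16), Ccna1 (-0.15) and Mybl1 (-0.11) fell. Markers of spermatogonia summed to 48.2 and 49.4 CPM in BMH21 and 55.7 and 54.6 CPM in mock, and those of spermatids, of which 1 of 8 fell, to 242 and 241 CPM in BMH21 and 235 and 233 CPM in mock. Each list of somatic markers (Sertoli, Leydig, peritubular myoid, macrophage, endothelial, basal epithelial) summed to less than the spermatogonial one, between 2.45 and 7.43 CPM in BMH21 and between 3.19 and 9.60 CPM in mock. These sums cover only markers among the listed genes. Present were 7 of 8 for spermatogonia, 2 of 8 for Sertoli, 4 of 6 for Leydig and 4 of 5 for peritubular myoid cells. For macrophages 6 of 7 were present, for endothelial cells 5 of 6 and for basal epithelial cells 1 of 4. The sums are thus not on equal terms between lists. No listed gene had a total under 4 counts, so no marker among the listed genes could be at 0 in every library. The level of the absent markers is not known here.

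The protein p53 is a transcription factor that is activated by DNA damage and other stresses and switches on genes of cell cycle arrest, DNA repair and apoptosis; p63 and p73 are its paralogs, and p63 is known as a guardian of the female germ line. MDM2 is the ubiquitin ligase that marks p53 for destruction, and MDM4 is its partner, which binds and inhibits p53. When ribosome production is disturbed, free ribosomal proteins such as RPL5 and RPL11 are known to bind MDM2 and so to stabilise p53, a route open to inhibitors of RNA polymerase I. The ASPP proteins bind p53-family proteins. ASPP1 (gene Ppp1r13b) and ASPP2 (gene Trp53bp2) favour the transcription of apoptotic genes, while iASPP (gene Ppp1r13l) opposes it.

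The promoters of the MDM genes are shown because their mRNAs moved together by nearly the same small amount. RefSeq windows on GRCm38.p6, from 250 bases before the start of a transcript, matched 7 of the 8 symbols; Trp63 is not among them. The 250 bases before the start were chr10:117710759-117711008 for Mdm2 and chr1:133025417-133025666 for Mdm4, both on the minus strand and printed 5′ to 3′, with capitals for a match to the decamer consensus of the p53 response element.
Mdm2: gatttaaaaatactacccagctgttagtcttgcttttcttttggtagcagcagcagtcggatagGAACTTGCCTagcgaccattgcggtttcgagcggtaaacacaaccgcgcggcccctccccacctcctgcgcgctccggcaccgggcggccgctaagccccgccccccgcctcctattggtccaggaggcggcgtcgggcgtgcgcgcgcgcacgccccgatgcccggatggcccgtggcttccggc
Mdm4: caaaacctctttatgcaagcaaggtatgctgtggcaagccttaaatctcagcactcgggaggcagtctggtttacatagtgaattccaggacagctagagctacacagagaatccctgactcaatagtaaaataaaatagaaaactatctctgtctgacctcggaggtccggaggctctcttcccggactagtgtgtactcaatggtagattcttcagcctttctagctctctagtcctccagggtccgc
The Mdm2 stretch held 1 such match, GAACTTGCCT, which begins 186 bases before the start, and the Mdm4 stretch held 0. With the 50 bases after the start included, the counts were the same. Of the 32851 RefSeq windows of 300 bases, 8.36% held at least 1, and among those of the 7 genes the Trp53 window was the other one. The consensus is its own reverse complement, so 1 reading covers both strands, and a full response element needs a pair of decamers. The p53-responsive promoter known for Mdm2 lies within an intron, outside the stretch printed here. In base composition the stretches differed, with 65.6% G and C before Mdm2 and 47.2% before Mdm4. The GC box GGGCGG, searched on both strands, occurred 2 times in the Mdm2 stretch and 0 times in the Mdm4 stretch, and in 35.7% of all windows. The CCAAT box, also searched on both strands, occurred 1 time before Mdm2 and 0 times before Mdm4, and in 37.4% of all windows. A further Mdm4 window at a start upstream of this one held none of the 3 motifs. None of these letters shows that a factor binds there.

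Which of these mRNAs changed under the inhibitor was tested by setting BMH21 against mock. Trp63, Trp53 and Ppp1r13l fell, Mdm2 and Mdm4 rose slightly, to 1.08 and 1.09 times their mock level, and Trp53bp2 and Ppp1r13b did not pass the test. Of the 7 genes tested, 5 were called, 2 higher and 3 lower (quasi-likelihood test of edgeR, with p adjusted over all tested genes after Benjamini and Hochberg and a threshold of 0.05). Among all genes tested 29.1% were called, 16.5% higher and 12.5% lower. By DESeq2 it was also 5 of the 7, against 21.7% of all genes, and 5 of the 7 had an unadjusted edgeR p under 0.05, against 37.5% of all genes. The split over all genes was 2282 higher and 1731 lower, and 1805 and 2480 under upper quartile scaling, under which the median gene moved by -0.05 on the log2 scale. CPM of the 2 groups did not overlap in any of the 7 tested genes, and in 60.9% of all genes tested. With 7 genes these counts describe the list and test nothing about it. Without mock replicate 2 the number called was 3, because Trp53 and Mdm2 lost their calls.

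**Figure D1:**
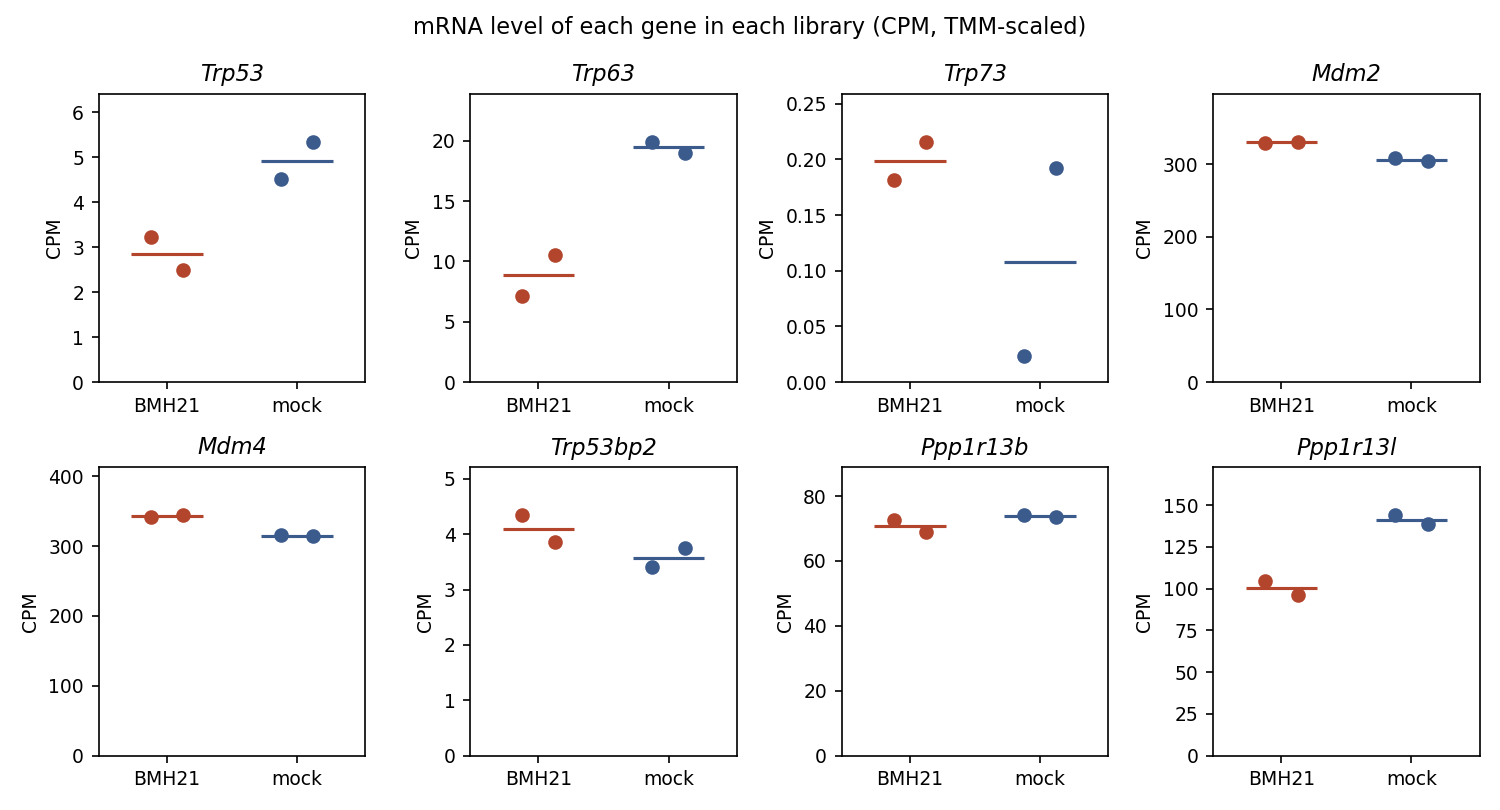
Level of each of the 8 genes in CPM (y axis, linear from 0, 1 scale per panel) in the BMH21 libraries (left, red) and the mock libraries (right, blue); each point is 1 library and each line the mean of 2. The BMH21 points lie below the mock points for Trp53, Trp63, Ppp1r13b and Ppp1r13l and above them for Mdm2, Mdm4 and Trp53bp2, while those of Trp73 overlap.

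Trp63 had the largest change among the 7 tested genes. It encodes p63, the family member with known roles in epithelia and in the quality control of oocytes, and lies on chromosome 16 (ENSMUSG00000022510.15, 25683763 to 25892102 on GRCm38, plus strand). It had 236 and 391 counts in the BMH21 libraries, against 836 and 594 counts in the mock libraries, or 7.12 and 10.6 CPM against 19.9 and 19.0 CPM. Both BMH21 libraries were below both mock libraries, and the BMH21 pair was spread more widely (8.84 ± 2.42 CPM) than the mock pair (19.5 ± 0.649 CPM; SD, n = 2 each). The log2 fold change was -1.13 ± 0.13 (SE), a level of 0.456 times that in mock, with an edgeR adjusted p of 1.67e-11. The call did not depend on the uneven BMH21 pair: the log2 fold change was -0.89 without BMH21 replicate 1 and -1.45 without BMH21 replicate 2, and both passed the test. In the authors' deposited table Trp63 was the only one of the 8 marked as changed, as down, with a log2 fold change of -1.14. The authors' adjusted p (DESeq2, Wald test) was 2.36e-09 for Trp63. It was also under 0.05 for Ppp1r13l (4.29e-17), Mdm4 (8.4e-04), Mdm2 (0.0084) and Trp53 (0.0348). The authors' mark thus asked for more than an adjusted p under 0.05.

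The counts are per gene and sum over transcript forms. GENCODE M21 lists 8 protein-coding transcripts of Trp63, of which 4 begin at the upstream start and 4 at a start 118 kb further downstream; the long forms carry the transactivation domain and the short forms lack it. Which of them fell cannot be told from gene counts. Annotated genes lie within the introns of Trp63, but none shares its exons.

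Trp53 itself was weakly expressed and fell as well. It lies on chromosome 11 (ENSMUSG00000059552.14, 69580359 to 69591873, plus strand) and had 107 and 92 counts in BMH21, against 189 and 167 counts in mock. In CPM this was 3.23 and 2.48 in BMH21 and 4.50 and 5.34 in mock, with no overlap between the groups. The log2 fold change was -0.78 ± 0.22 (SE), a level of 0.581 times that in mock, with an edgeR adjusted p of 0.00313. The call rested on few counts and was lost without mock replicate 2 (-0.66, edgeR adjusted p = 0.0540) and without BMH21 replicate 2 (-0.61, edgeR adjusted p = 0.0719). The annotation holds a processed pseudogene, Trp53-ps, on chromosome 17, and the sources used here do not say how reads shared with it were counted.

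The neighbour of Trp53, Wrap53, was picked with its value already known. It encodes a protein of telomerase and Cajal bodies, lies on the opposite strand and begins 104 bases from the start of Trp53, with no shared exon. Wrap53 had 7.73 and 6.50 CPM in BMH21 and 10.2 and 10.7 CPM in mock, so that it fell by 0.55 on the log2 scale (SE 0.14; edgeR adjusted p = 0.00180); that call was lost without BMH21 replicate 2 (-0.43). Both genes of this divergent pair were thus called lower. The sources used here do not say whether reads were counted by strand.

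Trp73, which encodes p73, was close to the limit of detection. It lies on chromosome 4 (ENSMUSG00000029026.18, 154056253 to 154140208, minus strand) and had 6 and 8 counts in BMH21, against 1 and 6 counts in mock. These are 0.181 and 0.216 CPM in BMH21 and 0.0238 and 0.192 CPM in mock; no test was made on the filtered table, and an annotated antisense gene, Trp73os, overlaps its exons. As a share of the Trp73 and Trp63 counts together, Trp73 made up 2.48% (95% exact binomial interval 0.915 to 5.32) and 2.01% (0.870 to 3.91) in BMH21, against 0.119% (0.00302 to 0.664) and 1.0% (0.368 to 2.16) in mock. The intervals cover counting error only; those of mock replicate 2 and of both BMH21 libraries overlap. The log2 ratio of Trp73 to Trp63 was 2.71 higher in BMH21 (-5.45 ± 0.22) than in mock (-8.17 ± 2.18; SD, n = 2 each), with a two-sided exact permutation p of 0.333, the smallest that 2 against 2 libraries allow. Without mock replicate 1, which had the single Trp73 count, the difference was 1.18. Trp63, the denominator of the ratio and part of the share, had a log2 fold change of -1.10 in that fit. Neither quantity thus shows a rise of Trp73 by itself.

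Among markers of other cells, 2 of the 5 tested spermatogonial ones, 1 of 8 spermatid and 1 of 2 tested Leydig ones were called, each lower, and 0 of those of Sertoli, peritubular myoid, macrophage, endothelial and basal epithelial cells. Over all tested genes 29.1% were called, with 12.5% lower, and these few markers were not tested against that share. Zbtb16, a transcription factor gene of spermatogonial stem cells, had 1.45 and 1.92 CPM in BMH21 and 2.81 and 3.74 CPM in mock, and Kit, the receptor gene of differentiating spermatogonia, had 2.75 and 2.86 CPM in BMH21 and 4.0 and 4.38 CPM in mock, both called lower, and both named after their values were seen. The call of Kit did not hold by DESeq2, nor in any fit without 1 of the libraries (-0.64 to -0.51), and that of Zbtb16 was lost without mock replicate 2 (-0.74) and without BMH21 replicate 1 (-0.77). The most abundant ones, Id4 (36.2 and 34.1 CPM in BMH21, 39.2 and 37.6 CPM in mock) and Gfra1 (6.91 and 9.66 CPM in BMH21, 8.89 and 8.19 CPM in mock), were not called. Basal epithelial cells are known for abundant p63. Of their 4 markers, Krt5, Krt14 and Krt15 were not analysed here, and the collagen gene Col17a1 stood at 2.45 and 2.51 CPM in BMH21 and 3.19 and 4.0 CPM in mock and was not called. The Leydig list summed to 6.55 and 7.29 CPM in BMH21 and 9.13 and 9.60 CPM in mock, and its leading gene Star, of steroid hormone synthesis, fell (log2 fold change -0.50), a call lost without BMH21 replicate 1 (-0.44). Fewer cells of a type and less RNA per cell cannot be told apart in these bulk libraries, and the part of other cells in the fall of Trp63, Trp53 or Ppp1r13l was not tested.

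The MDM genes were the most abundant of the 8 in counts and rose slightly. Mdm2 (ENSMUSG00000020184.16, chromosome 10, 117688875 to 117710758, minus strand) had 329 and 331 CPM in BMH21, against 308 and 304 CPM in mock. Mdm4 (ENSMUSG00000054387.14, chromosome 1, 132959484 to 133030561, minus strand) had 342 and 344 CPM in BMH21, against 315 and 314 CPM in mock. For both genes the groups did not overlap and the replicates lay within a few CPM of each other.

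The log2 fold change was 0.11 ± 0.03 (SE) for Mdm2, 1.08 times the level in mock, with an edgeR adjusted p of 0.00282. For Mdm4 it was 0.13 ± 0.03 (SE), 1.09 times the level in mock, with an edgeR adjusted p of 3.20e-04. Under upper quartile scaling Mdm2 was at 0.06 and lost its call (edgeR adjusted p = 0.113), and Mdm4 was at 0.08 and kept it; without mock replicate 2 Mdm2 also lost its call (0.10, edgeR adjusted p = 0.0759). A processed pseudogene, Mdm4-ps, is annotated on the X chromosome, and reads it may share with Mdm4 could not be separated here.

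The ratio of the MDM genes within a library does not depend on scaling. The log2 ratio of Mdm4 to Mdm2 counts was 0.06 and 0.06 in BMH21 and 0.03 and 0.05 in mock, a difference of 0.02 (two-sided exact permutation p = 0.333, the smallest possible with 2 against 2). Per kilobase of exon Mdm2 supplied 73.6% and 73.7% of the MDM level in BMH21 and 74.0% and 73.8% in mock.

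Among the ASPP genes, Ppp1r13l, which encodes the inhibitory member iASPP, had the smallest p of the 7 tested genes. It lies on chromosome 7 (ENSMUSG00000040734.15, 19359749 to 19378533, plus strand) and had 105 and 96.0 CPM in BMH21, against 144 and 139 CPM in mock, with no overlap. The log2 fold change was -0.50 ± 0.04 (SE), a level of 0.708 times that in mock, and the edgeR adjusted p was 3.08e-15. The estimate ran from -0.56 to -0.44 with 1 library left out, and the call held in each of these fits and under every other alternative. Polr1g, the neighbour whose span lies 266 bases away on the opposite strand and which encodes a subunit of RNA polymerase I, was singled out afterwards; it had 3.05 and 3.62 CPM in BMH21 and 3.12 and 4.67 CPM in mock and was not called.

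The activating members did not pass the test. Ppp1r13b, for ASPP1 (chromosome 12, 111828457 to 111908110, minus strand), had 72.6 and 69.0 CPM in BMH21 and 74.1 and 73.7 CPM in mock, which is -0.06 ± 0.05 (SE) as a log2 fold change (edgeR adjusted p = 0.435). Trp53bp2, for ASPP2 (chromosome 1, 182409172 to 182462432, plus strand), had 4.35 and 3.86 CPM in BMH21 and 3.41 and 3.74 CPM in mock, which is 0.20 ± 0.21 (SE) as a log2 fold change (edgeR adjusted p = 0.547). At 117 to 144 counts per library, the estimate for Trp53bp2 with its SE spanned -0.01 to 0.41 on the log2 scale. What size of change could be called for this gene was not measured. The ratio of Ppp1r13l to Ppp1r13b counts was 1.44 and 1.39 in BMH21, against 1.94 and 1.88 in mock, without overlap, a difference of -0.43 on the log2 scale (two-sided exact permutation p = 0.333, the smallest possible; this ratio was chosen after the values were seen).

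**Figure D2:**
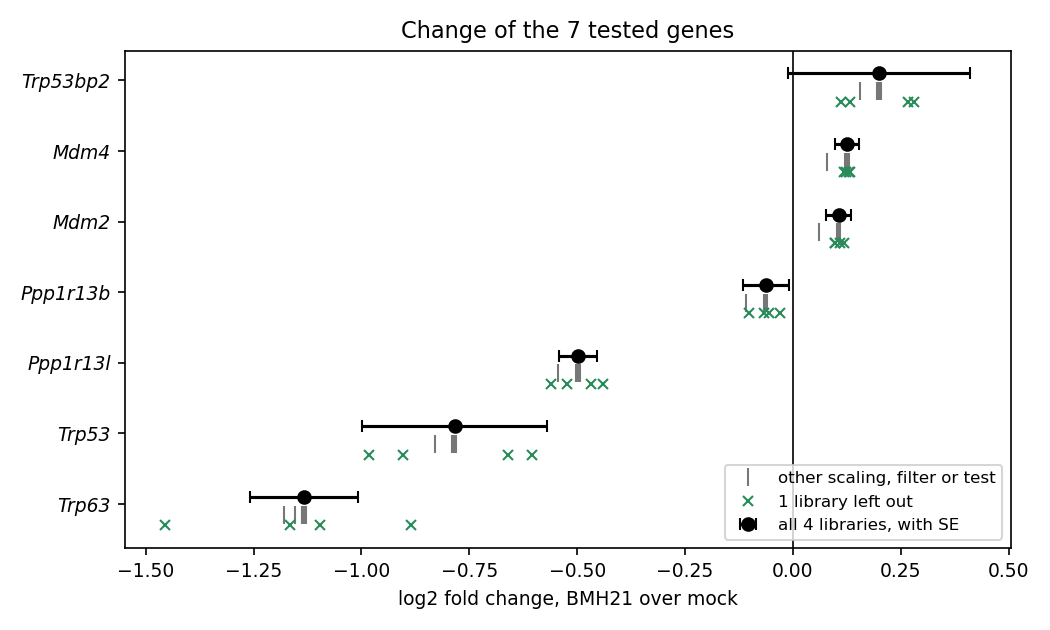
Log2 fold change of BMH21 over mock (x axis) for the 7 tested genes; black points with bars are the estimates from all 4 libraries with their SE, grey ticks are other scalings, filters or tests, and green crosses are fits with 1 library left out. Trp63, Trp53 and Ppp1r13l lie left of 0 and Mdm2 and Mdm4 right of it in every fit shown. So do the genes that were not called, with Ppp1r13b left of 0 and Trp53bp2 right of it.

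Levels were compared between genes per kilobase of annotated exon. In BMH21 the order from high to low was Mdm2 (64.9 ± 0.333 CPM per kb), Ppp1r13l (27.8 ± 1.68), Mdm4 (23.2 ± 0.103), Ppp1r13b (14.3 ± 0.513), Trp63 (1.05 ± 0.289), Trp53bp2 (0.929 ± 0.0781), Trp53 (0.706 ± 0.131) and Trp73 (0.0359 ± 0.00444; SD, n = 2 each). In mock it was Mdm2 (60.3 ± 0.565 CPM per kb), Ppp1r13l (39.2 ± 1.04), Mdm4 (21.3 ± 0.0624), Ppp1r13b (14.9 ± 0.0656), Trp63 (2.32 ± 0.0773), Trp53 (1.22 ± 0.147), Trp53bp2 (0.809 ± 0.0537) and Trp73 (0.0195 ± 0.0215; SD, n = 2 each). In BMH21 the values of Trp63 (0.849 and 1.26 CPM per kb) enclosed those of Trp53bp2 (0.984 and 0.874), so these neighbours did not differ beyond their spread. The libraries of all other neighbours in these orders did not overlap. Mdm2 thus stood at percentile 94.5 of all listed genes in BMH21 and 94.1 in mock, and Trp53 at percentile 36.1 in BMH21 and 43.7 in mock.

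The exon length is a union over all annotated transcripts, 14798 bases for Mdm4. With the longest protein-coding transcript in its place, a choice made after the data were seen, Mdm4 stood at 48.3 CPM per kb in BMH21 and 44.3 CPM per kb in mock, and Ppp1r13l at 32.0 CPM per kb in BMH21 and 45.2 CPM per kb in mock. In BMH21 these neighbours thus changed places. So did Trp53, at 1.53 CPM per kb, and Trp53bp2, at 0.941 CPM per kb, while in mock the order of the means was the same with either length. With the longest transcript, Trp53 and Trp63 supplied 55.9% and 42.9% of the family sum in BMH21 replicate 1. In BMH21 replicate 2 they supplied 39.8% and 58.9%, so their order differed between these libraries. Overlap of the other neighbours was not examined at this length.

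**Figure D3:**
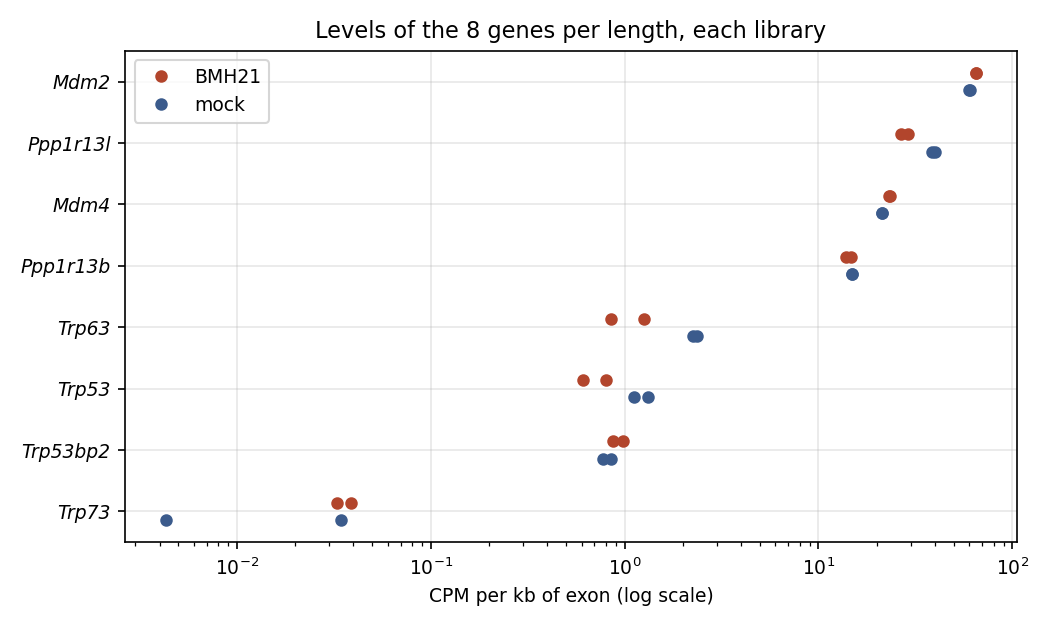
Level per kilobase of annotated exon (x axis, log scale) for the 8 genes, ordered by their mock mean, with BMH21 libraries in red above mock libraries in blue; each point is 1 library. Mdm2, Ppp1r13l, Mdm4 and Ppp1r13b lie above 10 CPM per kb and the p53-family genes with Trp53bp2 below 3.

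Summed per kilobase, the p53-family genes reached 1.68 and 1.91 CPM per kb in BMH21, against 3.49 and 3.62 in mock. Trp63 supplied 50.5% and 65.8% of this in BMH21 and 68.0% and 62.6% in mock, so its share overlapped between the groups. With the longest protein-coding transcript the family sum was 3.09 and 3.34 CPM per kb in BMH21, against 6.13 and 6.44 in mock, and the Trp63 share 42.9% and 58.9% in BMH21 and 60.6% and 55.0% in mock, again with overlap. The ASPP genes summed to 44.6 and 41.4 CPM per kb in BMH21 and 55.7 and 54.2 in mock; the share of Ppp1r13l was 65.0% and 64.3% in BMH21, against 71.8% and 71.0% in mock, without overlap (65.6% and 64.9% in BMH21 and 72.3% and 71.5% in mock with the longest transcript). The MDM genes summed to 87.8 and 88.4 CPM per kb in BMH21 and 82.0 and 81.1 in mock.

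**Figure D4:**
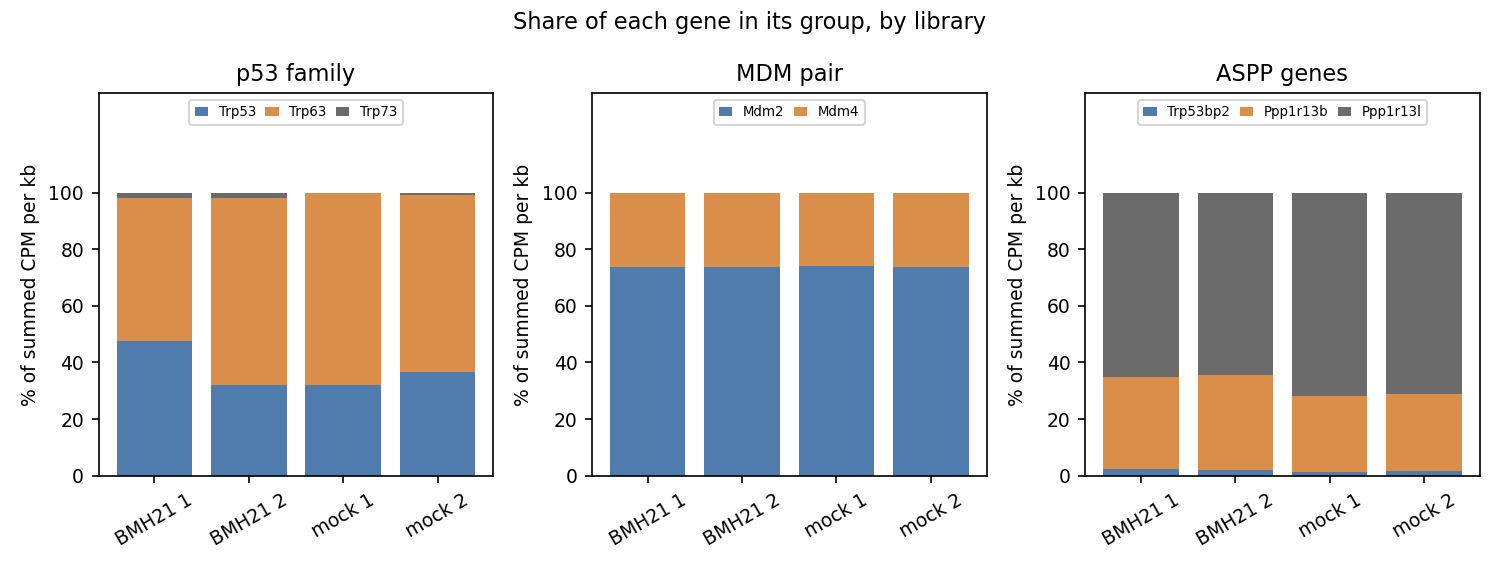
Share of each gene in the summed CPM per kilobase of its group (y axis, percent, linear from 0) in each library, with BMH21 libraries left of mock libraries, for the p53 family, the MDM pair and the ASPP genes. Ppp1r13l makes up 65.0% and 64.3% of the ASPP level in BMH21 and 71.8% and 71.0% in mock, while the Mdm2 share stays between 73.6% and 74.0%.

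The genes whose pattern over the 4 libraries was most like that of Ppp1r13l, by Euclidean distance between log2 CPM values centred on each gene's mean, were Muc4 (distance 0.0227), Prcd (0.0228) and Ints3 (0.0294), out of 13614 genes compared. As log2 fold changes, Muc4 was at -0.52, Prcd at -0.49 and Ints3 at -0.49. Muc4 and Ints3 were called lower and Prcd was not called, and the call of Muc4 did not hold by DESeq2, nor in any fit without 1 of the libraries (-0.57 to -0.47). With 4 libraries in 2 groups, likeness of this kind is mostly likeness of the fold change.

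Targets of p53 were listed to show the level of the pathway below the family. Of 40 genes, 29 were tested, of which 7 rose, 6 fell and 16 were not called, with a median log2 fold change of 0.11 against -0.00029 over all tested genes. The called share was 44.8%, against 29.1% of all tested genes, with 24.1% higher and 20.7% lower, against 16.5% and 12.5%. By DESeq2 the called number was 8, and without mock replicate 1 it was also 8, in each case 6 higher and 2 lower; over all genes 21.7% were called by DESeq2 and 21.1% without that library. The apoptosis gene Pmaip1 rose and had 17.7 and 18.0 CPM in BMH21 and 6.10 and 4.86 CPM in mock. Ei24, a gene of the endoplasmic reticulum membrane, rose and had 28.2 and 27.3 CPM in BMH21 and 17.4 and 17.7 CPM in mock. In the other direction Ckap2, a gene of the mitotic spindle, fell and had 18.7 and 21.6 CPM in BMH21 and 28.5 and 34.0 CPM in mock. Cdkn1a, the cell cycle inhibitor gene that is the classic target of p53, had 12 and 7 counts in BMH21 and 6 and 9 counts in mock, and was not called (log2 fold change 0.38 ± 0.84 (SE)). Other targets that were not called, named after their values were seen, include Bax (log2 fold change -0.49), Ccng1 (-0.56), Zmat3 (0.10) and Aen (0.13). The remaining called targets that rose were Perp (3.34, at 0.572 CPM in BMH21 and 0.0477 CPM in mock), Xpc (0.72), Trp53inp1 (0.54), Fbxw7 (0.31) and Abhd4 (0.14). Those that fell were Dram1 (-1.11), Pidd1 (-0.65), Plk2 (-0.50), Sesn1 (-0.22) and Ppm1d (-0.11). These called targets were not followed singly through the alternative fits.

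Of 24 ubiquitin ligases and deubiquitinases that act on p53-family proteins or MDM2, all were tested, 8 rose and 6 fell, with a median log2 fold change of 0.01. This is 58.3% called, against 29.1% of all tested genes. The largest changes were in X-linked members. Huwe1, a ligase gene, had 107 and 105 CPM in BMH21 and 4.65 and 5.95 CPM in mock. The deubiquitinase gene Otud5 had 35.9 and 36.4 CPM in BMH21 and 1.72 and 1.34 CPM in mock. Both X-linked members of the list rose. The share that rose among all tested X-linked genes was not computed here, so these rises cannot be read as a trait of the list. On the autosomes the ligase gene Nedd4 had 13.5 and 13.9 CPM in BMH21 and 3.77 and 4.70 CPM in mock (log2 fold change 1.71). Named after their values were seen, Itch, the ligase gene for p63 and p73, rose by 0.53 on the log2 scale, and Usp7, the deubiquitinase gene for p53 and MDM2, by 0.20.

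Of 22 genes for kinases of these proteins or for kinase subunits, 20 were tested, 2 rose and 4 fell, with a median log2 fold change of 0.05. No phosphatase gene was in this list. The called number, 6 of 20, was close to the 29.1% among all tested genes. Abl1, a tyrosine kinase gene, rose by 0.23 on the log2 scale, Plk1, a mitotic kinase gene, had a log2 fold change of -0.21, and the stress kinase gene Mapk8 one of -0.43. The other called genes, named after their values were seen, were Mapk9 (0.22), Csnk2a1 (-0.29) and Aurka (-0.10). None of these calls held with every library left out in turn: Mapk9 was at 0.11 and Aurka at -0.09 without mock replicate 2, and Csnk2a1 at -0.16 without mock replicate 1 and -0.17 without BMH21 replicate 2, none of them called. By DESeq2 Csnk2a1 was not called either (-0.29). The damage kinase genes Atm (-0.09), Atr (0.03), Chek1 (0.41) and Chek2 (1.06) were not called, with Chek2 at 0.536 CPM in BMH21 and 0.264 CPM in mock.

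Of 29 cofactors and modifying enzymes, all were tested, 5 rose and 7 fell, with a median log2 fold change of -0.04. As shares these were 17.2% higher and 24.1% lower, against 16.5% and 12.5% of all tested genes. The p300 partner gene Jmy had 29.6 and 30.1 CPM in BMH21 and 14.9 and 17.5 CPM in mock. Brd7, a bromodomain gene, rose by 0.31, and the deacetylase gene Sirt1 had 60.8 and 71.6 CPM in BMH21 and 82.0 and 84.2 CPM in mock (log2 fold change -0.33). The other genes that rose, named after their values were seen, were Kat6a (0.36), Ep300 (0.19) and Kdm1a (0.16). Ep300 lost its call under upper quartile scaling (0.14), by DESeq2 (0.19), without mock replicate 1 (0.10) and without BMH21 replicate 2 (0.12).

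The list nearest to the known route from the nucleolus to MDM2 was the ribosomal and nucleolar proteins that bind MDM2 or p53. Of 24 genes, 23 were tested, 15 rose and 1 fell, with a median log2 fold change of 0.16 against -0.00029 over all tested genes. As shares these were 65.2% higher and 4.35% lower, against 16.5% and 12.5% of all tested genes. The 3 called genes with the smallest p encode nucleolar proteins. Mybbp1a had 69.4 and 67.6 CPM in BMH21 and 38.3 and 36.8 CPM in mock, Gnl3, which encodes nucleostemin, had 21.4 and 18.4 CPM in BMH21 and 10.7 and 11.9 CPM in mock, and Npm1, for nucleophosmin, had 335 and 356 CPM in BMH21 and 293 and 297 CPM in mock. Of the 5S ribonucleoprotein pair, named after their values were seen, Rpl5 rose by 0.16 and Rpl11 by 0.12 on the log2 scale; the gene that fell was Nop53 (-0.17). Under upper quartile scaling neither Rpl5 (0.11) nor Rpl11 (0.08) was called. Rpl11 was not called by DESeq2 (0.12), nor in any fit without 1 of the libraries (0.11 to 0.14), and Rpl5 lost its call without mock replicate 2 (0.12) and without BMH21 replicate 2 (0.12). Ribosomal protein genes have near-identical pseudogene copies, so their counts are uncertain. The number called was 8 under upper quartile scaling (7 higher and 1 lower), 10 by DESeq2, 9 without mock replicate 1, 10 without mock replicate 2 and 10 without BMH21 replicate 2. Over all genes the called shares in these fits were 31.1% under upper quartile scaling, 21.7% by DESeq2, 21.1% without mock replicate 1, 20.9% without mock replicate 2 and 23.1% without BMH21 replicate 2. Cdkn2a, the gene of ARF, an inhibitor of MDM2, was not called (log2 fold change -0.53). It had 2.66 and 0.918 CPM in BMH21 and 2.48 and 2.62 CPM in mock, so the BMH21 libraries disagreed. The log2 fold change was -1.47 without BMH21 replicate 1 and 0.0572 without BMH21 replicate 2.

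**Figure D5:**
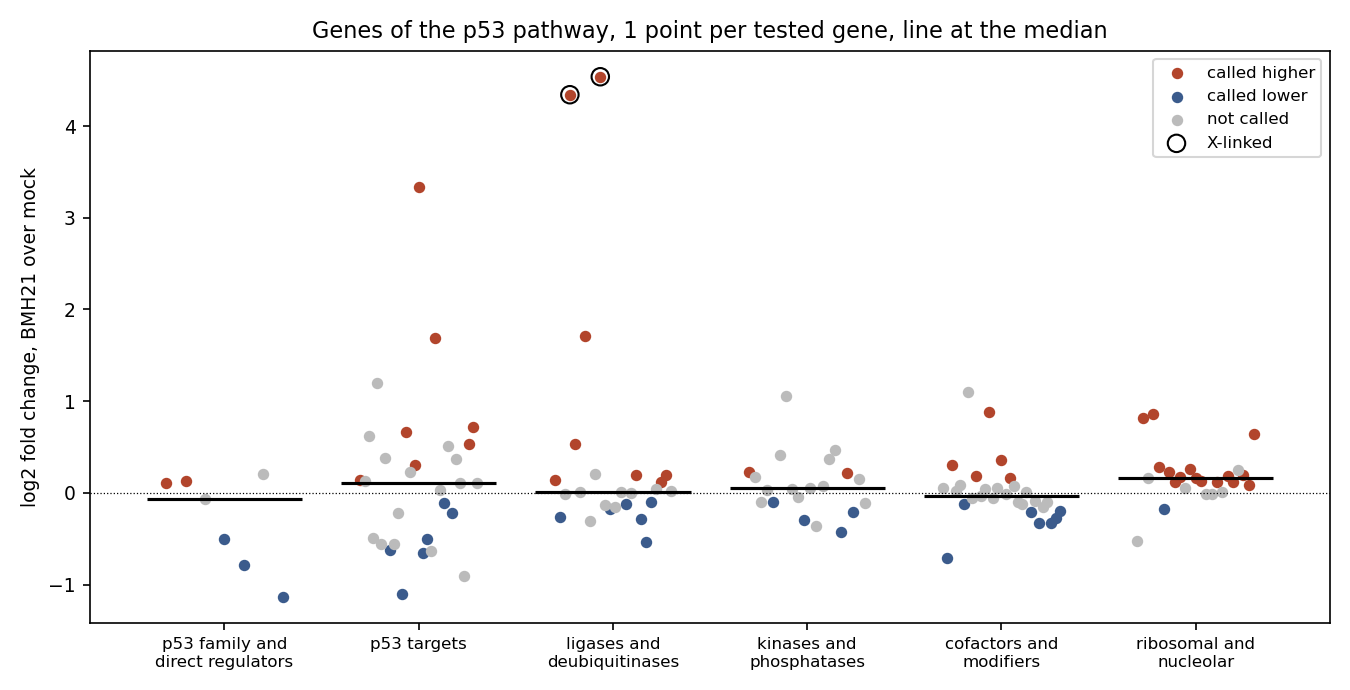
Log2 fold change of BMH21 over mock (y axis) for every tested gene of the 8-gene group and of the 5 pathway lists (x axis); each point is 1 gene, red for called higher, blue for called lower and grey for not called, rings mark X-linked genes and lines mark the medians. The ribosomal and nucleolar list has 15 red points and 1 blue one, while targets of p53 show 7 red and 6 blue. The list labelled kinases and phosphatases holds no phosphatase gene.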

How the data were processed

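Gene-level mRNA counts were analysed for 2 BMH21 and 2 mock libraries. Per the labels' protocols, RNA came from TRIzol lysates and the library kit was a stranded one for mRNA. Per the submitters' processing notes, the build was mm10 and the tools were DESeq2, featureCounts, Fastp, SAMtools and STAR, with no versions or settings. Whether reads were counted by strand is not given. The authors deposited raw read counts per gene, which were tested here as they stand. The authors also deposited size-factor-normalized values (signal), log2 fold changes with standard errors, a Wald score and p-values, raw and adjusted, per the file headers; these entered no test, and a DESeq2 fit made here came within 2.83e-05 of the authors' deposited log2 fold changes.

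Genes were kept by filterByExpr (minimum count 10), scaled by TMM and tested in R 4.3.3 with edgeR 4.0.16 (quasi-likelihood, group alone, all 4 libraries), and called where p, adjusted after Benjamini and Hochberg, was under 0.05. The SE is the log2 fold change divided by the square root of F. DESeq2 1.42.0 was an alternative, as were other scalings and filters, the replicate number as a block and leaving out each library. With 2 libraries per group, p-values rest on a spread pooled over genes (common coefficient of variation 4.09%), and they measure only the spread between these samples. On simulated counts for this comparison (13586 genes), the fit called 29 of the 50 genes given a change of 1.25-fold, 37 of the 50 given 1.5-fold, 43 of the 50 given 2-fold and 48 of the 50 given 4-fold, and made 14 false calls. The simulated spread followed the trend over expression alone, without variation of its own per gene. Changes were balanced in direction and given only to genes above a floor of expression. Recovery on the real counts, and for genes as weak as Trp73 or Cdkn1a, was not measured.

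Coordinates and exon lengths are from GENCODE M21 (GRCm38), matched by identifier for 15670 of 15733 genes; the table's own positions were the same for 369 of them and were not used. The members, the 5 pathway lists and the marker lists were chosen with earlier results of these data known. The text names all 8 members and Cdkn1a, up to 3 called genes with the smallest p per pathway list, the 2 most abundant markers per list and the 3 genes nearest in pattern to the member with the smallest p; other names were added with their values in view. The remaining most abundant markers were Prm2 and Tnp2 (spermatids), Dhh and Amhr2 (Sertoli), Insl3 (Leydig), Tagln and Acta2 (peritubular myoid), Csf1r and Ptprc (macrophage) and Vwf and Pecam1 (endothelial); none of these was called.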

Additional observations from a re-analysis of the deposited data

How the results depend on the processing

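With 1 library left out, the number of called members ran from 3 to 5, of called p53 targets from 8 to 10, and of called ribosomal and nucleolar genes from 9 to 15. By DESeq2 8 p53 targets and 10 ribosomal and nucleolar genes were called, and under upper quartile scaling 8 ribosomal and nucleolar genes; the cause was not tested. With the replicate number as a block 5 members were called, as without it. The block changed no other count by over 1.5 times. Among the genes followed singly through the alternative fits, it ended the calls of Muc4 (edgeR adjusted p = 0.0509), Kit (edgeR adjusted p = 0.0555) and Csnk2a1 (edgeR adjusted p = 0.0592). The labels do not say that the numbers pair the samples, and the deviations of same-numbered libraries had a correlation of 0.0109 across genes. For the genes followed singly, 662 alternative values kept their direction and their side of the threshold, 44 no longer passed it and 1 newly passed it, that of Cdkn2a without BMH21 replicate 1. In 21 the sign changed, all in genes that were not called with all 4 libraries nor in the fit concerned. Under upper quartile scaling these were Prm2 (-0.0250) and Atr (-0.0107). With 1 library left out, the log2 fold change of Cdkn1a ran from -0.15 to 0.92, of Gfra1 from -0.31 to 0.17, of Prm2 from -0.0355 to 0.0687, of Dhh from -0.27 to 0.44, of Amhr2 from -0.16 to 0.0614, of Acta2 from -6.24 to 0.68, of Ptprc from -0.17 to 0.82, of Vwf from -0.19 to 0.81, of Polr1g from -0.48 to 0.10, of Bax from -1.05 to 0.34, of Atm from -0.29 to 0.13 and of Cdkn2a from -1.47 to 0.0572. The difference in the log2 ratio of Mdm4 to Mdm2 ran from 0.01 to 0.03 with 1 library left out and that of Trp73 to Trp63 from 1.18 to 4.25. Depth limits, among others, Trp73 (1 to 8 counts per library), Cdkn1a (6 to 12), Acta2 (0 to 16), Insl3 (5 to 21) and Chek2 (6 to 23). Ptprc (18 to 48 counts per library), Bax (22 to 47) and Ccng1 (24 to 54) were low as well.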
